A study of Drosophila melanogaster with 24 samples.

Results

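The genes described here are the annotated noncoding RNA genes of the Drosophila melanogaster testis: rows of the count tables whose FlyBase symbol begins with lncRNA:CR (long noncoding RNA) or asRNA:CR (antisense RNA) and whose mean level in the 6 Control testis libraries was at least 5 CPM. CPM is a gene's read count per 1000000 gene counts of its library. The rule kept 132 genes, 121 lncRNA and 11 asRNA, of 464 such rows and of 15406 genes in all. The genes were chosen by their Control testis levels, so those levels are a description and carry no test. The last genes inside the rule were lncRNA:CR43764 at 5.14 CPM and asRNA:CR43876 at 5.12 CPM. The first outside it were lncRNA:CR43453 at 4.93 CPM and lncRNA:CR33948 at 4.89 CPM. Of the 464 rows, 332 lay below the level, and 32 had no read in any Control library.

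Long noncoding RNAs are transcripts with no long open reading frame. In Drosophila many of them are found mainly in the testis, where spermatocytes transcribe a large set of testis-specific genes before meiosis, and transcription then falls in spermatids. Most of these genes carry only an annotation number. No function is given for them in the sources used here, so they are ordered below by level, tissue and response rather than by role.

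RNA-seq was made from gonads of adult flies raised at 18 °C and aged 5 days and held at the restrictive temperature for 0, 12 or 24 h, to find transcripts that change when the sex-specific isoform of the transcription factor DSX is switched acutely. Testes came from XY males carrying y1 w*; UAS-Tra.F 20J7; tubP-GAL80ts 7/tubP-GAL4 LL7, called TraF, or the tubP-GAL80ts/tubP-GAL4 drivers without the UAS transgene, called Control. In both, the tubulin promoter drives GAL4 broadly, and GAL80ts, a GAL4 inhibitor, fails when warm; only TraF then makes the female form of the splicing regulator Transformer. Ovaries came from XX females with the temperature-sensitive alleles tra2[ts1]/tra2[ts2] of the Transformer cofactor, called tra2ts, in a w1118 background, or from w1118 females. Egg chambers of stage 10 and older had been discarded. Each of the 12 groups has 2 libraries, from separate dissections according to the labels. The labels do not say that TraF and Control share their other chromosomes, so a difference between them that is present at all times cannot be told apart from a difference of strain.

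The 24 libraries held between 16136939 and 32782474 gene counts. The tra gene, which is also the transgene's source, was at 20.5 and 21.7 CPM in TraF testes at 0 h. It rose there to between 209 and 284 CPM at the later times. In Control testes it was at 10.3 and 10.5 CPM at 0 h and between 5.69 and 10.5 CPM over all times. The part of the higher tra level at 0 h in differences between TraF and Control was not tested. The tra2 alleles leave no check in counts. The tissue labels were checked against marker lists summed in CPM. Spermatid genes summed to between 16400 and 21689 CPM in testes and between 28.5 and 62.9 CPM in ovaries. Follicle cell genes summed to between 14911 and 37431 CPM in ovaries and between 0.780 and 2.21 CPM in testes. Meiotic arrest genes, which spermatocytes need for their transcription programme, summed to between 450 and 665 CPM in testes and between 9.66 and 21.9 CPM in ovaries. Of the testis libraries, 2 stood apart. In TraF 24 h replicate 1, 10 muscle genes summed to 488 CPM against 828 to 1038 CPM in the other 11. The other was Control testis at 12 h, replicate 1, in which 15 accessory gland genes, whose products go into seminal fluid, summed to 3999 CPM against 3.49 to 15.8 CPM in the other 11 testis libraries.

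One noncoding RNA gene rested on that Control library. lncRNA:CR43994 was at 32.4 CPM in Control 12 h replicate 1 and at no more than 0.0409 CPM in any other testis library. It was one of the 132 only through this library, and was too low elsewhere to be tested. The part of accessory gland RNA in its level was not tested. Without that library the rule kept 130 genes. lncRNA:CR43994 left, lncRNA:CR43648 fell from 5.18 to 4.88 CPM and left, and none entered. The tests below therefore cover 131 genes in testis.

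A few genes made up most of the noncoding signal. The 132 genes summed to 8539 CPM in Control testes, and the 10 highest held 66.9% of that sum. The highest were lncRNA:CR32652 with a mean of 1221 CPM and lncRNA:CR32658 with 1203 CPM, which together held 28.4%. The next were lncRNA:CR32690 (649 CPM), lncRNA:CR32661 (643 CPM), lncRNA:CR9284 (636 CPM), lncRNA:CR42767 (414 CPM) and lncRNA:CR43157 (293 CPM). The last of the 10 were lncRNA:CR42850 (260 CPM), lncRNA:CR42657 (216 CPM) and lncRNA:CR42862 (175 CPM). The median gene was at only 14.2 CPM, 22 genes reached 50 CPM and 14 reached 100 CPM.

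The 10 highest genes differed in how closely their libraries lay. The coefficient of variation over the 6 Control libraries ran from 0.0657 for lncRNA:CR42767 to 0.270 for lncRNA:CR43157, which was at 206 to 410 CPM in Control and 78.6 to 219 CPM in TraF testes. lncRNA:CR9284 was at 511 to 880 CPM in Control and 418 to 770 CPM in TraF testes. In both genes the genotypes overlapped. In Control testes lncRNA:CR32652 was at 1313 and 1342 CPM at 0 h, 1239 and 1063 CPM at 12 h, and 1068 and 1298 CPM at 24 h. In TraF testes it was at 1242 and 1454 CPM at 0 h, 1544 and 1434 CPM at 12 h, and 1339 and 1367 CPM at 24 h. These ranges overlapped. lncRNA:CR32658 ran from 1016 to 1335 CPM in Control and from 1082 to 1396 CPM in TraF testes, again overlapping. Over the 132 genes, the median coefficient of variation among the 6 Control libraries was 0.152. The widest after lncRNA:CR43994 (2.45) were lncRNA:CR43280 (0.638) and asRNA:CR43160 (0.526), which both changed with time in the warm.

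Per length, the order at the top changed. lncRNA:CR32658 came first with 1438 CPM per kb of exon, then lncRNA:CR32652 with 1375 and lncRNA:CR32661 with 984 CPM per kb. lncRNA:CR42862, the longest of the 132 at 5485 bp of exon, had 31.8 CPM per kb. Most genes were short: exonic length ran from 214 to 5485 bp with a median of 741 bp, 51 genes had 1 exon block, 46 had 2 and 35 had 3 or more.

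The genes lay on all major chromosomes, and the highest were mostly X-linked. The X chromosome held 26 genes, chromosome 2 held 53, chromosome 3 held 52 and chromosome 4 held 1. The 26 X-linked genes gave 62.8% of the summed Control CPM and 7 of the 10 highest genes. Among these, lncRNA:CR32661 and lncRNA:CR43157 are neighbours on the same strand. The library did not mark strand, so reads of overlapping genes on opposite strands cannot be told apart. By the annotation, 16 of the 132 genes share exon sequence with another gene, 12 of them with a gene on the other strand and 5 on the same strand. A further 35 overlap the span of another gene, wholly or in part, without shared exons, and 81 do neither. The gene with a heavily shared exon among the higher genes was lncRNA:CR33987, at 68.2 CPM, of whose exon 84.3% is shared with tio on the same strand. How the authors' counting divided such reads is not given in the sources used here.

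In ovaries almost all of these RNAs were at or near 0. The sum of the 132 genes was between 7412 and 9394 CPM in the 12 testis libraries and between 133 and 393 CPM in the 12 ovary libraries. In the ovaries, 56 genes had no read in any of the 12 libraries and another 27 had 1 to 3 reads in all. A mean of at least 1 CPM was reached by 7 genes and at least 5 CPM by 6. In bulk tissue, fewer cells of a type and less RNA per cell cannot be told apart.

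**Figure D1:**
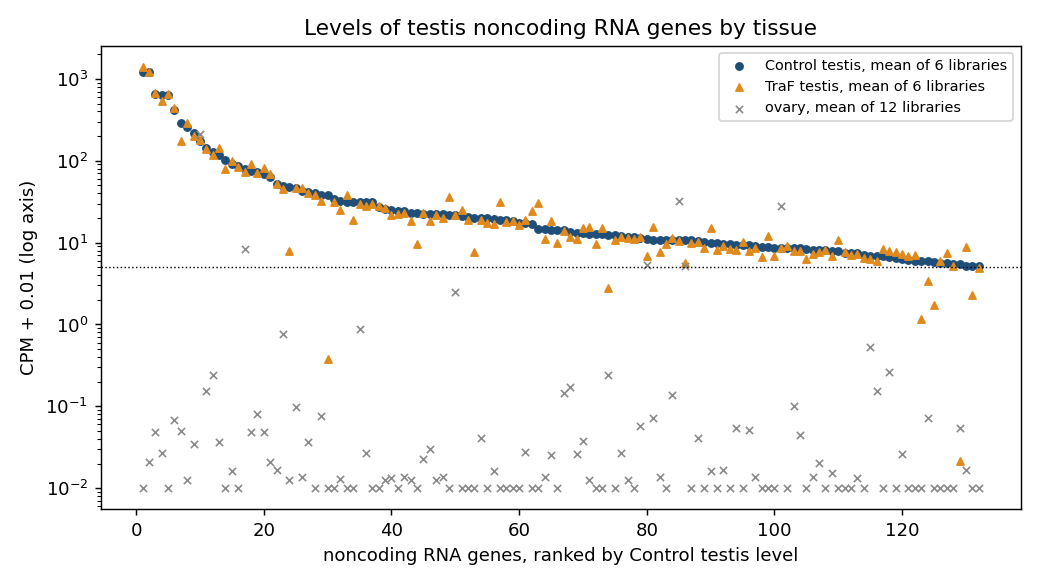
Mean level of each of the 132 noncoding RNA genes in Control testes (circles), TraF testes (triangles) and ovaries (crosses), ranked by Control level, in CPM plus 0.01 on a log axis, with the selection level of 5 CPM dotted. The testis points lie near one another along the ranking, with a few TraF points far below, while most ovary points lie at the floor of 0 CPM and 3 lie above the Control mean.

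The tissues were tested with TraF testes, whose libraries the rule did not use, against w1118 ovaries. This was edgeR's quasi-likelihood test over the mean of 3 times, with Benjamini-Hochberg adjustment over all genes at a threshold of 0.05. Of 131 genes tested, 127 were higher in testis and 2 were lower. Among all genes tested in this comparison 89.3% were called, 53.4% higher in testis and 35.9% lower. The high Control level that chose the genes bears on this count, and so does the filter on low counts: 120 of the 132 genes were too low to be tested within ovaries, so nearly all entered this fit through the testis libraries. The count is therefore a description and supports no difference of the set. The log2 changes depend on scaling: the median of all genes was 0.80 with TMM and 1.13 with edgeR's RLE scaling, a shift of 0.33.

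For 75 genes w1118 ovaries had no read, so their fold is a lower bound taken at 3 counts over the group. These bounds ran from 21.5 to 68538, with a median of 535. lncRNA:CR32652 was at least 68538-fold higher in TraF testes, lncRNA:CR32658 at least 59405-fold and lncRNA:CR9284 at least 32733-fold. Bounds and counting intervals cover counting error only, since reads carried no molecular identifiers.

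The ovarian remainder was nearly all from 5 genes, which gave 95.8% of the ovary sum. They were lncRNA:CR42862 (mean 215 CPM over 12 ovary libraries), lncRNA:CR43685 (31.8 CPM), lncRNA:CR42549 (27.7 CPM), lncRNA:CR43264 (8.26 CPM) and lncRNA:CR31781 (5.34 CPM). In w1118 ovaries lncRNA:CR42862 was at 129 and 288 CPM at 0 h, 280 and 129 CPM at 12 h, and 121 and 135 CPM at 24 h. In tra2ts ovaries it was at 275 and 307 CPM at 0 h, 286 and 275 CPM at 12 h, and 297 and 53.7 CPM at 24 h. The w1118 libraries divided into 2 high and 4 low, the last tra2ts library was the lowest of all, and the genotypes overlapped. TraF testes, between 122 and 218 CPM, lay inside that ovary range, and the tissue difference missed the threshold (log2 change 0.27, SE 0.300, adjusted p 0.391). The gene shares 4.48% of its exon with CG33229.

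lncRNA:CR43685 was lower in testis. It was at 6.32 to 14.2 CPM in the 6 TraF testes and 27.8 to 40.9 CPM in the 6 w1118 ovaries, with no overlap (log2 change -1.48, SE 0.116, adjusted p 1.15e-09). lncRNA:CR42549 was lower too, at 7.36 to 9.36 CPM in TraF testes and 24.7 to 50.5 CPM in w1118 ovaries, again with no overlap (log2 change -1.68, SE 0.148, adjusted p 6.10e-09). asRNA:CR42254, at 5.20 CPM in ovaries, differed by 0.27 between TraF testes and w1118 ovaries (SE 0.187, adjusted p 0.182). Its mean in Control testes, which are not in this contrast, was 10.6 CPM. It shares 34.8% of its exon with BEAF-32 on the other strand.

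A larger share of these genes than of all genes was called between TraF and Control testes. Of 131 genes, 24 were called over the mean of the 3 times, 15 lower and 9 higher in TraF (18.3%), whereas 5.36% of all 12083 genes tested were called, 3.06% lower and 2.3% higher. Among the 8956 tested genes with a Control mean of at least 5 CPM, 4.49% were called. A high Control mean was part of the choice of these genes, so a lower TraF level is favoured by the rule. The libraries that chose the genes also enter this comparison, so the count is a description and supports no difference of the set. The median log2 change of the 131 genes was -0.02 and that of all genes -0.01. In 124 genes the TraF mean was still at least 5 CPM.

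lncRNA:CR43263 on 2L was nearly lost in TraF. In Control testes it was at 40.4 and 36.9 CPM at 0 h, 36.4 and 35.5 CPM at 12 h, and 40.5 and 39.1 CPM at 24 h. In TraF testes it was at 0.124 and 0.0436 CPM at 0 h, 0.391 and 0.113 CPM at 12 h, and 1.49 and 0.0389 CPM at 24 h. All 6 TraF libraries were far below all 6 Control libraries (log2 change -7.15, SE 0.436, adjusted p 5.87e-06), and this held already at 0 h. No ovary library had a read of it.

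lncRNA:CR43414, also on 2L, was low in TraF and rose with time there. In Control testes it was at 42.2 and 39.1 CPM at 0 h, 49.2 and 44.0 CPM at 12 h, and 49.5 and 59.5 CPM at 24 h. In TraF testes it was at 2.60 and 2.92 CPM at 0 h, 9.14 and 7.20 CPM at 12 h, and 12.4 and 12.4 CPM at 24 h. The genotypes did not overlap (log2 change -2.78, SE 0.109, adjusted p 1.94e-07). In TraF the 2 libraries of each later time lay above both libraries of the time before.

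The next decreases were in genes of lower level. lncRNA:CR43621 was at 4.74 to 7.12 CPM in the 6 Control libraries and 0.895 to 1.58 CPM in the 6 TraF libraries (log2 change -2.32, SE 0.156, adjusted p 9.71e-06). lncRNA:CR43461 was at 7.62 to 19.2 CPM in Control and 1.71 to 4.28 CPM in TraF (log2 change -2.08, SE 0.185, adjusted p 6.81e-05). Neither gene's genotypes overlapped. lncRNA:CR43420 was at 4.67 to 6.43 CPM in Control and 0.973 to 2.97 CPM in TraF (log2 change -1.78, SE 0.159, adjusted p 6.81e-05). lncRNA:CR43422 was at 14.1 to 27.5 CPM in Control and 4.63 to 9.51 CPM in TraF (log2 change -1.31, SE 0.134, adjusted p 1.58e-04). These 2 did not overlap either. The other 9 genes called lower had log2 changes between -1.20 (lncRNA:CR43605) and -0.37 (lncRNA:CR43252).

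Among the genes that were higher in TraF, lncRNA:CR42844 on 2L had the largest change. It was at 14.7 and 10.7 CPM at 0 h, 20.8 and 8.16 CPM at 12 h, and 20.1 and 14.5 CPM at 24 h in Control testes. It was at 26.3 and 26.4 CPM at 0 h, 35.0 and 27.6 CPM at 12 h, and 35.6 and 33.3 CPM at 24 h in TraF testes. Every TraF library was above every Control library (log2 change 1.12, SE 0.189, adjusted p 0.00499).
lncRNA:CR43753 was at 15.5 to 22.8 CPM in Control and 26.7 to 35.3 CPM in TraF (log2 change 0.77, SE 0.133, adjusted p 0.00554). asRNA:CR43299 was at 15.1 to 19.6 CPM in Control and 22.9 to 26.0 CPM in TraF (log2 change 0.57, SE 0.0877, adjusted p 0.00298). Neither gene's genotypes overlapped. asRNA:CR43299 shares 25.3% of its exon with CG8119 on the other strand, which had no read in any library.

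The remaining increases were less firm. lncRNA:CR43648 (log2 change 0.81, SE 0.153, adjusted p 0.00987) lost its call without TraF 12 h replicate 1. lncRNA:CR43810 (log2 change 0.73, SE 0.185, adjusted p 0.0447) kept its call in 2 of 12 fits that each left out 1 library. lncRNA:CR40053 (log2 change 0.65, SE 0.140, adjusted p 0.0211) kept it in 4 of 12. The other 3 genes called higher had log2 changes between 0.46 (lncRNA:CR43372) and 0.56 (lncRNA:CR43656). lncRNA:CR43810 overlaps the span of Cpr50Ca, a cuticle protein gene, which was lower in TraF (log2 change -1.16, SE 0.232, adjusted p 0.0138).

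Of 6 pairs of a called gene and a gene that overlaps its span without shared exons, the other gene was called in 2. Neither changed in the same direction, and 5.36% of all genes were called here. Of 2 partners that share exons on the opposite strand, 1 had too few reads to be tested and the other was not called. Marker levels moved with genotype as well: 9 gut genes summed to 24.7 to 127 CPM in Control and 3.97 to 40.8 CPM in TraF testes. Of the 5 gut genes tested, 3 were called lower in TraF and 0 higher, with a median log2 change of -1.35, and their part in these differences was not tested. Without the Control library rich in accessory gland RNA 26 noncoding genes were called, and without TraF 24 h replicate 1, low in muscle RNA, 18 were.

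**Figure D2:**
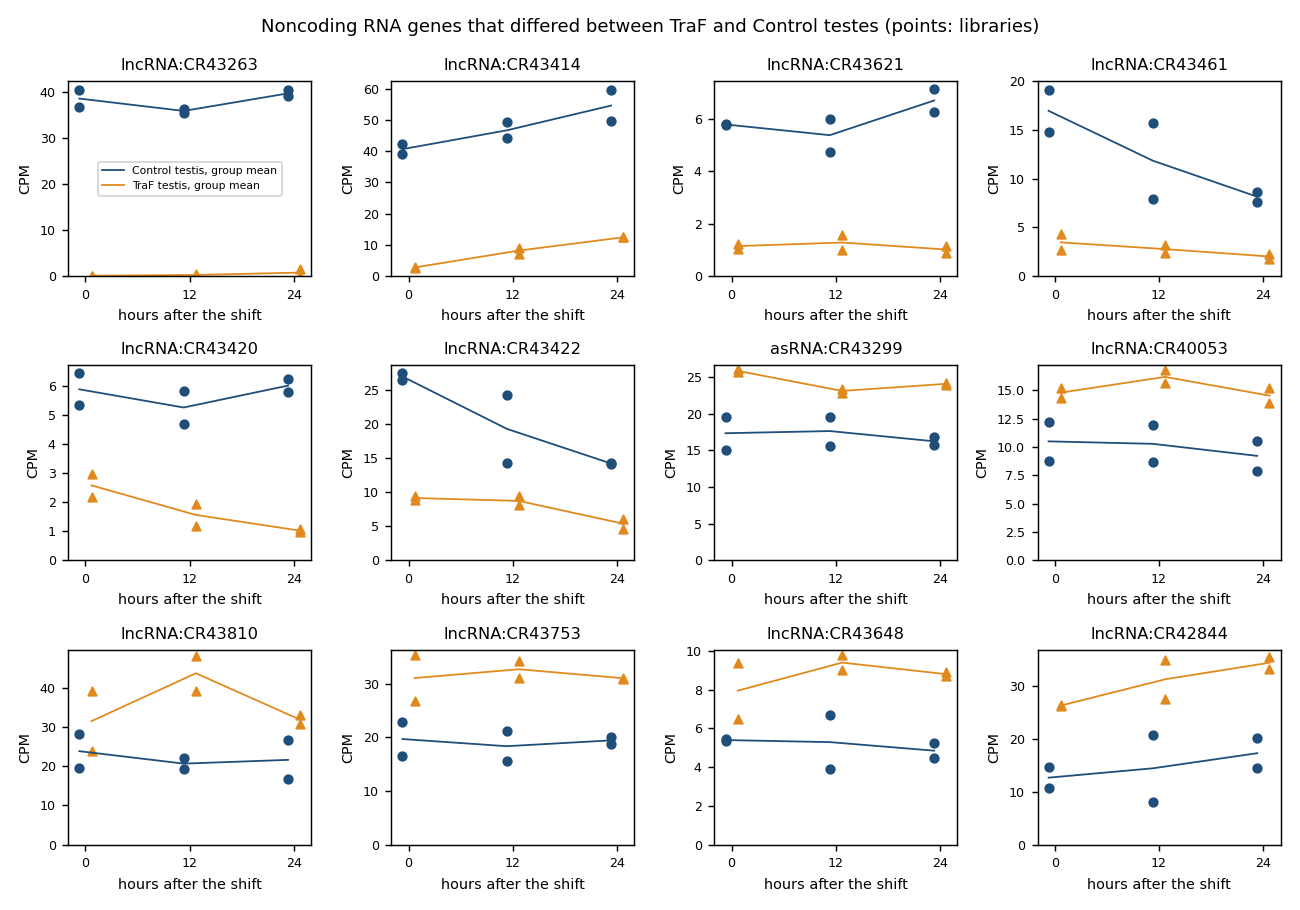
Levels of the 12 noncoding RNA genes with the largest called decreases (first 6 panels) and increases (last 6 panels) between TraF and Control testes, in CPM from 0, against hours after the temperature shift. Points are libraries, circles Control and triangles TraF, and lines join the means of 2 libraries. lncRNA:CR43263 lies between 35.5 and 40.5 CPM in Control and at no more than 1.49 CPM in TraF.

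The genotype calls were unevenly placed. On chromosome 2, 15 of 53 noncoding genes were called (28.3%), on X 4 of 26 (15.4%) and on chromosome 3 5 of 51 (9.80%). The gene on chromosome 4 was not called. Of all genes tested, 9.09% were called on chromosome 2, 6.45% on X, 4.94% on chromosome 4 and 1.67% on chromosome 3. The genotype as written puts UAS-Tra.F in the second position and the drivers, which Control carries too, in the third. These shares are counts with no test, and the part of linked sequence in them was not tested.

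**Figure D3:**
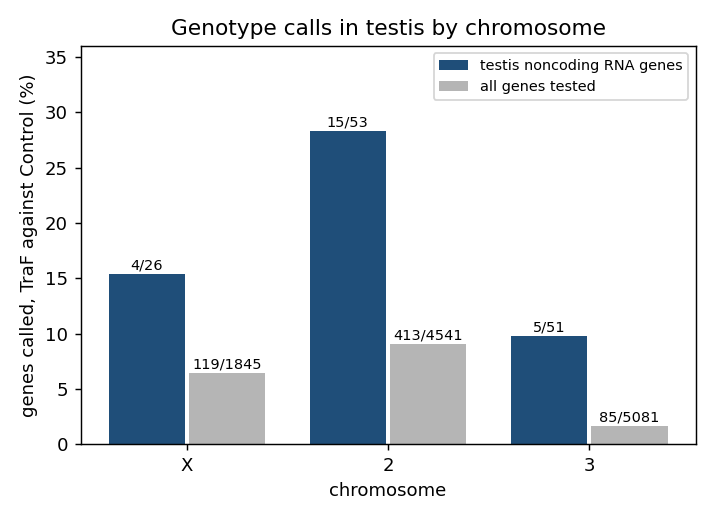
Percent of tested genes called between TraF and Control testes on chromosomes X, 2 and 3, for the noncoding RNA genes (dark bars) and for all genes (grey bars), with called over tested genes above each bar. Chromosome 2 has the highest share in both, 28.3% and 9.09%.

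The next comparison was of time at the restrictive temperature. It holds no library kept cool for 12 or 24 h, and it averages Control with TraF, in which tra rose with the shift, so temperature, elapsed time and, in TraF, the transgene cannot be told apart. At 24 h against 0 h, over the mean of both genotypes, 29 of 131 genes were called (22.1%), 15 higher and 14 lower. Among all genes 12.2% were called, 6.79% higher and 5.43% lower, and among those with a Control mean of at least 5 CPM 11.4%. At 12 h against 0 h, 10 of 131 genes were called (7.63%), 7 higher and 3 lower, against 3.53% of all genes (1.7% higher and 1.82% lower) and 3.27% of those at that Control level. Both comparisons share the 0 h libraries. The Control libraries that chose the genes also enter both, so these counts are descriptions and support no difference of the set. The median log2 change of the set was 0.06 at 12 h and -0.03 at 24 h, beside 0.01 and 0.00 for all genes. Without any one of 12 libraries, 4 to 10 genes were called at 12 h and 18 to 30 at 24 h. At 12 h the count was 4 without TraF 0 h or TraF 12 h replicate 1, 5 without either Control 0 h library, and 6 without TraF 12 h replicate 2 or either TraF 24 h library. At 24 h the count fell to 18 when leaving out TraF 0 h replicate 1, either TraF 24 h library or either Control 0 h library, and to 19 when leaving out Control 24 h replicate 2.

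The rise was largest for lncRNA:CR43280 on 3L. In Control testes it was at 1.68 and 2.68 CPM at 0 h, 3.15 and 7.45 CPM at 12 h, and 7.70 and 10.6 CPM at 24 h. In TraF testes it was at 2.35 and 2.44 CPM at 0 h, 4.57 and 5.05 CPM at 12 h, and 9.67 and 7.32 CPM at 24 h. All 4 libraries at 24 h were above all 4 at 0 h (log2 change 1.91, SE 0.283, adjusted p 0.00226). Its Control mean was 5.54 CPM, and it reached the 5 CPM of the rule only through its later Control libraries. A rise from 0 h in this gene is therefore favoured by the rule.

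asRNA:CR43160 on 2R was at 6.15 to 8.52 CPM in the 4 libraries at 0 h, 10.2 to 16.8 CPM at 12 h and 15.9 to 27.7 CPM at 24 h. The times did not overlap between 0 h and either later time. The log2 change was 0.83 at 12 h (SE 0.196, adjusted p 0.0438), a call kept in 3 of 12 fits without 1 library, and 1.43 at 24 h (SE 0.196, adjusted p 0.00159). It shares 21.5% of its exon with otp, a homeobox gene on the other strand, whose log2 change at 24 h was -0.10 (adjusted p 0.805).

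lncRNA:CR43881 was at 3.16 to 5.12 CPM at 0 h, 6.92 to 8.97 CPM at 12 h and 7.44 to 13.1 CPM at 24 h. Its log2 change was 0.92 at 12 h (SE 0.153, adjusted p 0.00891) and 1.32 at 24 h (SE 0.152, adjusted p 6.58e-04). lncRNA:CR43640 was at 3.71 to 5.42 CPM at 0 h, 6.49 to 11.0 CPM at 12 h and 8.45 to 11.5 CPM at 24 h. Its log2 change was 0.87 at 12 h (SE 0.116, adjusted p 0.00335) and 1.09 at 24 h (SE 0.116, adjusted p 5.02e-04). For both genes the libraries at 0 h lay below those of both later times. lncRNA:CR43414 rose by 0.90 at 12 h (SE 0.131, adjusted p 0.00454) and 1.27 at 24 h (SE 0.130, adjusted p 4.19e-04). These values average 2 unlike genotypes, whose libraries are given above. In Control it went from 42.2 and 39.1 CPM at 0 h to 49.5 and 59.5 CPM at 24 h. In TraF it went from 2.60 and 2.92 CPM to 12.4 and 12.4 CPM.

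lncRNA:CR43904, which overlaps the span of the ecdysone receptor gene EcR, rose: it was at 3.78 to 6.41 CPM at 0 h and at 9.58 to 12.2 CPM at 24 h (log2 change 1.02, SE 0.167, adjusted p 0.00384). lncRNA:CR43685 rose by 0.67 at 12 h (SE 0.113, adjusted p 0.00993) and 0.84 at 24 h (SE 0.113, adjusted p 0.00145). The former call was kept in 9 of 12 fits without 1 library, as was that of lncRNA:CR43881 at 12 h. lncRNA:CR42696 at 12 h (log2 change 0.63, adjusted p 0.0442) lost its call in all 12.

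The largest called fall at 24 h was that of lncRNA:CR43840 on 2L. In Control testes it was at 11.6 and 10.6 CPM at 0 h, 6.39 and 5.03 CPM at 12 h, and 5.98 and 5.45 CPM at 24 h. In TraF testes it was at 10.5 and 10.1 CPM at 0 h, 6.29 and 4.98 CPM at 12 h, and 4.79 and 5.68 CPM at 24 h. Every library at 0 h was above every later one. The log2 change was -0.88 at 12 h (SE 0.132, adjusted p 0.00537) and -0.98 at 24 h (SE 0.132, adjusted p 0.00148).

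The largest called fall at 12 h was that of lncRNA:CR32368. It was at 9.20 to 10.0 CPM at 0 h, at 3.42 to 5.21 CPM at 12 h and at 3.89 to 6.79 CPM at 24 h. Its log2 change was -1.09 at 12 h (SE 0.150, adjusted p 0.00369) and -0.85 at 24 h (SE 0.148, adjusted p 0.00521). lncRNA:CR43853 was at 7.44 to 8.46 CPM at 0 h and at 4.12 to 4.63 CPM at 24 h (log2 change -0.89, SE 0.127, adjusted p 0.00192). Its call at 12 h was kept in 1 of 12 fits without 1 library. The Control mean of lncRNA:CR43853 was 5.67 CPM, and its Control libraries at 12 and 24 h lay below 5 CPM. The rule therefore took it through its 0 h libraries, which favours a fall. The times 0 h and 24 h did not overlap for either gene.

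lncRNA:CR43422 (log2 change -0.87, SE 0.164, adjusted p 0.00764) and lncRNA:CR43436 (log2 change -0.80, SE 0.148, adjusted p 0.00667) were lower at 24 h. lncRNA:CR43461 was lower too (log2 change -0.92, SE 0.225, adjusted p 0.0238), a call kept in 5 of 12 fits without 1 library. The neighbouring genes lncRNA:CR43484 and lncRNA:CR43485 on 3L, on opposite strands, were both called, with log2 changes of -0.46 and -0.39.

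Of the 29 genes called at 24 h, 3 share exon sequence with another gene, as do 16 of the 131 tested. Of the 7 pairs of a called gene and a gene that overlaps its span only, 0 of the other genes were called. Of 3 pairs sharing exons on opposite strands, 0 partners were called. Gut marker genes summed to 3.97 to 38.6 CPM in the 4 testis libraries at 0 h and 30.2 to 127 CPM in the 4 at 24 h. Of the 5 gut genes tested at 24 h, 2 were called higher and 0 lower, and their median log2 change was -0.52. Other marker lists had calls at 24 h too. Of 11 meiotic arrest genes tested, 3 were called higher and 1 lower (median log2 change 0.28). Called lower were 2 of 4 neuron genes, 2 of 3 fat body genes and 1 of 9 female germline genes. Of 4 hemocyte genes, 1 was called higher. The part of these marker genes in the changes above was not tested.

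**Figure D4:**
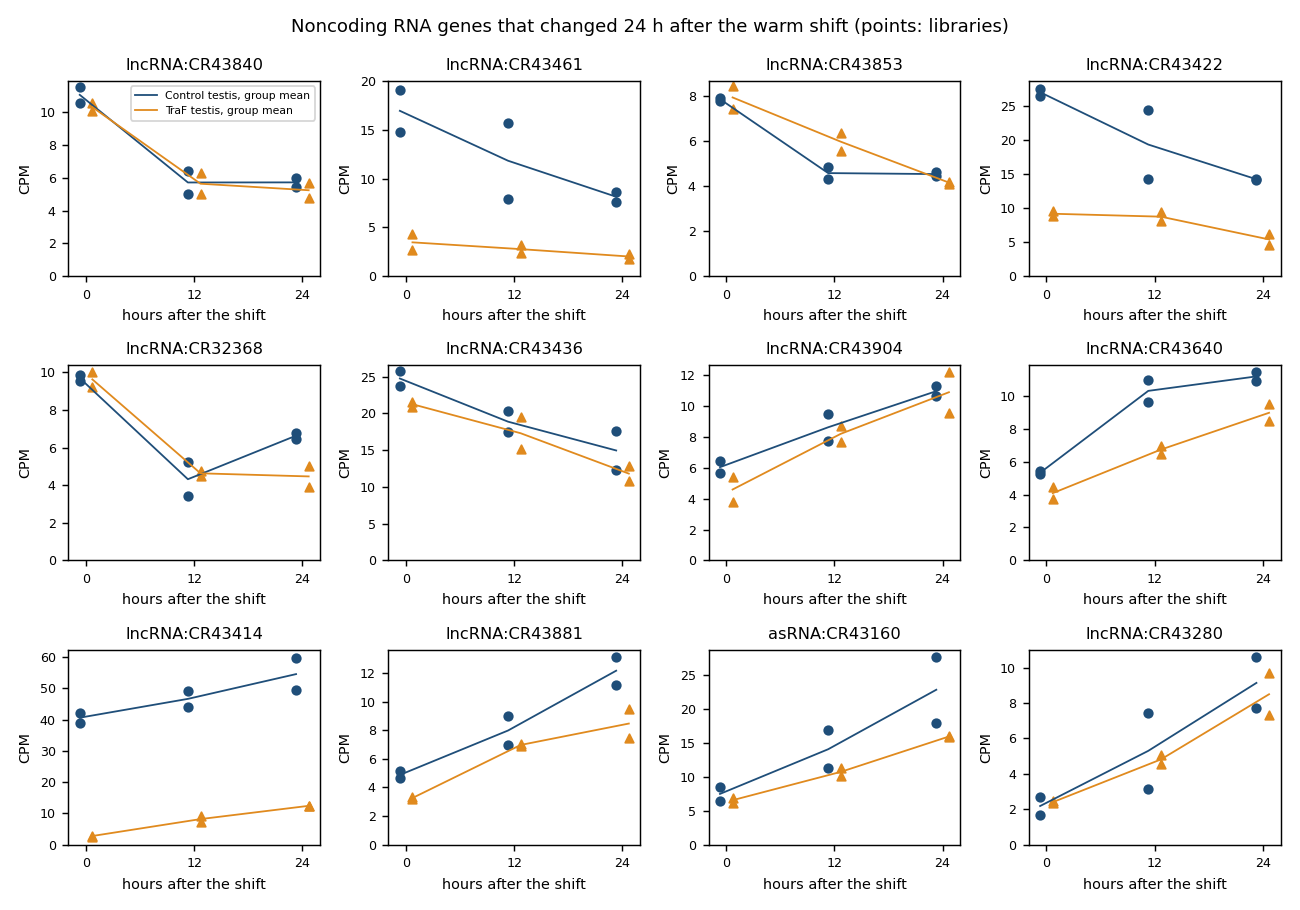
Levels of the 12 noncoding RNA genes with the largest called falls (first 6 panels) and rises (last 6 panels) between 0 and 24 h in testes, in CPM from 0, against hours after the temperature shift. Points are libraries, circles Control and triangles TraF, and lines join the means of 2 libraries. In lncRNA:CR43840 all libraries at 12 and 24 h lie below all libraries at 0 h.

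The switch comparison asks whether the change from 0 h differed between TraF and Control. No noncoding gene was called at 12 or 24 h by edgeR, where 0.00828% of all genes (1 of 12083) were called at each time. Without adjustment, 4 of the 131 genes had p under 0.05 at 12 h and 5 at 24 h. By DESeq2 a single gene passed at both times, lncRNA:CR43414. Its change from 0 h was larger in TraF by a log2 value of 1.41 at 12 h (SE 0.261, adjusted p 1.00 by edgeR and 0.0109 by DESeq2). At 24 h the value was 1.70 (SE 0.260, adjusted p 0.269 by edgeR and 5.70e-05 by DESeq2). The rule took it through its Control mean alone, and its low TraF level at 0 h enters both values.

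The other genes under that unadjusted p at 12 h were lncRNA:CR42696 (log2 value 0.73, SE 0.295), lncRNA:CR43847 (log2 value 0.83, SE 0.355) and lncRNA:CR31781 (log2 value -0.64, SE 0.279). At 24 h they were lncRNA:CR43420 (log2 value -1.37, SE 0.385), lncRNA:CR31781 (log2 value -0.76, SE 0.276), lncRNA:CR43802 (log2 value -0.67, SE 0.272) and lncRNA:CR43263. All had adjusted p of 1.00 by edgeR. Naming lncRNA:CR43802 and the 12 h value of lncRNA:CR31781 falls outside the rule and was chosen after their values were seen. The highest value at 24 h, 3.25 (SE 1.38), was that of lncRNA:CR43263, which was at 1.49 CPM in one TraF library of that time and at 0.0389 CPM in the other.

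At 12 h most switch values of the set were small and above 0. The median switch value of the 131 genes was 0.23 at 12 h, with 111 genes above 0 (84.7%), whereas the median of all genes was -0.01 with 47.8% above 0. At 24 h the median was 0.01 with 69 genes above 0. Beside this, the median at 12 h was 0.26 for the 23 tested spermatid genes and 0.03 for the 11 tested meiotic arrest genes. For the 10 genes of the testis soma list it was -0.19. The other marker lists ran from -9.44 for 7 accessory gland genes to 1.36 for 5 gut genes. Control 12 h replicate 1, rich in accessory gland RNA, enters this comparison. The 2 switch comparisons share the 0 h libraries. Leaving out 1 library at a time gave medians between 0.12 and 0.35 at 12 h, with 85 to 113 genes above 0. The replicates differed in the summed level of the 132 genes. From 0 to 12 h it went from 7412 to 9351 CPM in TraF replicate 1 and from 8524 to 8458 CPM in TraF replicate 2. In Control it went from 8651 to 8809 CPM in replicate 1 and from 8754 to 7638 CPM in replicate 2. The genes come from the same few libraries, so their number does not add replicates.

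**Figure D5:**
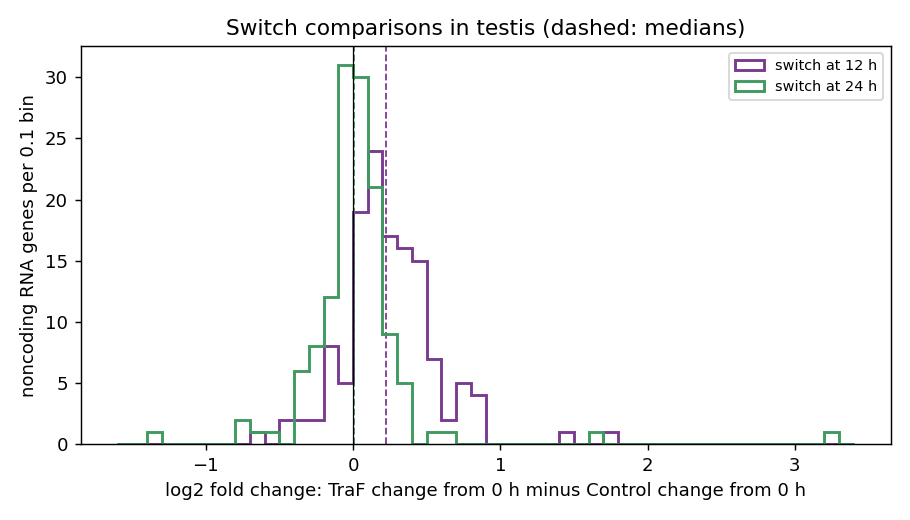
Number of noncoding RNA genes per 0.1 bin of log2 change against the switch value (TraF change from 0 h minus Control change from 0 h) at 12 h and 24 h in testes, with dashed lines at the medians of 0.23 and 0.01. The 12 h outline lies mostly above 0 and the 24 h outline is centred near 0.

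In ovaries 12 of the 132 genes were high enough to be tested. Between tra2ts and w1118 ovaries 1 of the 12 was called, lncRNA:CR42549, lower in tra2ts. Among all genes 4.02% were called, with 1.43% of all genes lower. It was at 24.7 to 50.5 CPM in the 6 w1118 libraries and 12.8 to 29.8 CPM in the 6 tra2ts libraries, and the groups overlapped (log2 change -0.72, SE 0.162, adjusted p 0.0394). The call was kept in 2 of 12 fits without 1 library. The gene shares 4.93% of its exon with mura on the same strand, whose log2 change was 0.89 (adjusted p 0.0545). Marker lists moved with this genotype too: muscle genes summed to 214 to 762 CPM in w1118 and 589 to 1779 CPM in tra2ts ovaries, and hemocyte genes to 4.05 to 17.8 and 28.8 to 69.9 CPM. Their part in the difference was not tested.

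Time at the restrictive temperature gave 0 calls among the 12 ovary genes at 12 h, where 2.32% of all genes were called, and 0 at 24 h, where 3.9% were. Without adjustment, 3 genes had p under 0.05 at either time, and by DESeq2 2 genes passed at 12 h and 1 at 24 h. The tra2ts switch gave 0 of 12 at both times, by DESeq2 too, and 0 genes had an unadjusted p under 0.05. No gene of all 8784 was called there by edgeR.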

How the data were processed

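RNA was extracted from dissected gonads and sequenced as 76 bp single-end reads with a TruSeq v2 kit, which does not mark strand; the kit and read length are per the labels' protocols. The restrictive temperature was 29 °C for ovaries and 30 °C for testes by the extraction text and 29 °C for all by the treatment text. Per the submitters' processing notes, TopHat 1.4.1, HTSeq and the build dm3 were used. The HTSeq version, its settings and the annotation release are not given in the sources used here. The deposited files hold raw counts per gene, unnormalized, for 15406 genes, and the summary lines (reads outside genes 1.07% to 2.48%, ambiguous reads 1.88% to 4.30%) were left out. Symbols were found for 14731 gene identifiers. Arms, exon lengths and overlaps came by identifier from a later annotation (BDGP6.54 release 115), so no coordinates are given.

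Counts were tested in R 4.3.3 with edgeR 4.0.16 (filterByExpr by group, TMM, glmQLFit, glmQLFTest, two-sided, prior count 0.125), 1 fit per tissue with a mean per group, and all 24 libraries for the tissue comparison. SE is the log2 change over the square root of F. DESeq2 1.42.0 was an alternative. The fits were also run on simulated counts that gave every gene the same spread between replicates. The outcome of that run is not given here, and it is no check of the calls above. Figures used Python 3.11.15 and matplotlib 3.10.9.

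Named genes were the 10 highest in Control, up to 6 largest rises and 6 largest falls per comparison (or the 3 lowest p), the genes at the threshold, the 5 highest in ovary, the 3 most variable and lncRNA:CR43414. Outside this rule, the text also names asRNA:CR42254, lncRNA:CR33987, lncRNA:CR43484, lncRNA:CR43485, lncRNA:CR43605, lncRNA:CR43252, lncRNA:CR43372, lncRNA:CR43656 and lncRNA:CR43802. Members and marker lists were chosen with earlier results of these data known. Cell type markers were summed in CPM per library. A motif search of promoters was not run, and no sequence was used here.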

Additional observations from a re-analysis of the deposited data

How the results depend on the processing

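Other scaling, no filter, DESeq2, a replicate block and leaving out each library were tried. Genotype calls in testis were 24 with edgeR's RLE scaling, 24 without a filter and 26 with DESeq2. The labels give same-numbered samples no shared source, so the replicate block was not the main analysis. Same-numbered deviations correlated at -0.0868 to 0.489 in testis (median 0.185, 11 of 15 group pairs over 0.1) and at -0.593 to 0.618 in ovary (median 0.359, 12 of 15 over 0.1), and not every pair was over 0.1. With the replicate block, 28 noncoding genes were called by genotype in testis, 14 at 12 h, 31 at 24 h and 0 at each switch. In ovary the block gave 1 by genotype and 0 elsewhere, and for the tissues 129. DESeq2 called 1 gene at each testis switch, 2 in ovary at 12 h and 1 in ovary at 24 h. Without a filter 1 was called in ovary at 24 h and 2 by ovary genotype.

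Leaving out 1 library gave 17 to 26 genotype calls in testis, 4 to 10 at 12 h, 18 to 30 at 24 h and 0 at both switches. It gave 0 to 1 by ovary genotype, 0 to 1 at 12 h and 0 to 3 at 24 h in ovary, 0 at both ovary switches, and 129 to 130 between tissues. The ovary call of lncRNA:CR42549 ended without any of 10 of the 12 libraries. Fits without a library have fewer samples; no other cause was tested. The ovary switch value of lncRNA:CR32368 at 12 h turned to -0.02 without tra2ts 12 h replicate 1 and -0.12 without w1118 0 h replicate 2, with 2.89 as the highest without a library. That of lncRNA:CR32582 at 24 h turned to -0.050 without tra2ts 24 h replicate 2, with 1.497 as the highest. Of 960 values of named genes under alternatives, 872 kept direction and side of the threshold, 76 lost their call, 9 gained one and 3 turned. The rule over 5 Control libraries, added after the data were seen, kept 130 genes. Groups of 2 libraries and low ovary counts limit what can be called.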
